A study of Mus musculus with 18 samples.

Results

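The genes described here are genes of mouse cortical neuron cultures that are measured on only 1 of the study's 2 Affymetrix array types, called set B here, and whose signal was higher after 6 h in a raised concentration of potassium chloride (KCl) than before it. A gene counted as set B-only when its symbol had no probe set on the other array type, set A. Npas4 was left out by the rule. Of 8876 set B-only probe sets that carry a gene symbol (5743 genes), 92 probe sets of 81 genes met 3 conditions. The mean of log2(signal + 16), quantile-normalized over the 9 set B arrays, was at least 1.5 higher at 6 h than at 0 h, every 6 h array lay above every 0 h array, and the mean deposited signal at 6 h was at least 800 units. The members were thus chosen by measured 0 h and 6 h values, and the 6 h minus 0 h difference is given as a description with no test. In all, 71 genes were represented by 1 member probe set, 9 by 2 and Ppm1l by 3.

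The cultures came from postnatal day 0 mouse cortex per the labels, which also call the neurons embryonic, and were kept for 7 days in vitro. The 0 h group had no exposure to KCl, and the other groups had 1 h and 6 h of it, at 55 mM per the sample labels and at 50 mM per the series text. The series text speaks of 3 independent experiments, and each time had 3 set B arrays, so n = 3 at every value below. Values are given in the order of replicates 1, 2 and 3. No genotype, strain or drug is named for any group. Cultures kept for 1 h or 6 h without KCl are not among the groups, so time in the dish and exposure to KCl cannot be told apart.

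As background, raised potassium depolarizes the neuronal membrane and opens L-type calcium channels. The calcium that enters activates kinases and phosphatases that act on transcription factors already in the nucleus, among them CREB, SRF and MEF2. A first wave of genes, many of them coding for transcription factors such as the Fos and Egr proteins, is transcribed without new protein synthesis. A later wave codes for secreted peptides, channels, adhesion proteins and signalling enzymes that act at the synapse and on the cell surface. The members are ordered below by such roles.

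Array quality ratios and astrocyte marker signals moved with time in these samples. The 5′ to 3′ signal ratio of the Actb control probe sets was 0.366 ± 0.0840 (SD) at 0 h, 0.650 ± 0.0704 at 1 h and 0.574 ± 0.0579 at 6 h, and that of Gapdh was 0.855 ± 0.218, 1.18 ± 0.114 and 1.21 ± 0.143. The 3 arrays numbered 1 hold values below 0 (27.4% to 28.0% of probe sets) and the other 6 hold none. On set A, all 9 measured neuronal markers were above background, and their summed signal ranged from 46880 to 49219 at 0 h, from 46520 to 50748 at 1 h and from 50523 to 54223 at 6 h. The summed signal of 8 astrocyte markers, all above background, ranged from 21015 to 21749.5 at 0 h, from 15149.5 to 17568 at 1 h and from 13794 to 15927 at 6 h. Markers of other cells were also measured. Of 7 markers of the oligodendrocyte lineage, 6 were above background at 0 h, all but Mog, with a summed signal from 5438 to 8075 at 0 h, from 4045 to 6890 at 1 h and from 4194 to 6892 at 6 h. Of 8 microglial markers, 5 were above background at 0 h, all but Ptprc, Itgam and C1qa, with sums from 665 to 1121 at 0 h, from 870.2 to 1006 at 1 h and from 652 to 900.2 at 6 h. Of 8 markers of vascular cells and fibroblasts, 5 were above background at 0 h, all but Cldn5, Pdgfrb and Dcn, with sums from 627 to 707 at 0 h, from 797 to 865 at 1 h and from 452 to 669.9 at 6 h. The part of RNA quality and of cell composition in the results below was not tested, and in such bulk RNA fewer cells of a type and less RNA per cell cannot be told apart.

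Over the 92 probe sets the 6 h minus 0 h difference ran from 1.501 to 5.09 on the log2 scale, with a median of 2.04, and over all 16883 tested set B probe sets the median was 0.01. A difference of at least 1.5 was reached by 3.81% of all tested probe sets. In limma 81 of the 92 members and 2.20% of all tested probe sets were higher at 6 h than at 0 h with an adjusted p under 0.05, which the rule had arranged and from which nothing is read. The median deposited signal of the members was 495 units at 0 h, 1164 at 1 h and 2083 at 6 h. Background was set at 369 units, the 95th percentile over control probe sets for bacterial transcripts, and 34 members had a 0 h mean within it. For those the size and rank of a difference from 0 h depend on the added constant. The fold is then given as a lower bound on the normalized scale, where each dim array counts as the highest of its own signal, its own background and 369 units. The same was done for a 1 h mean within background, as in 10 members. Over the 58 members above background at 0 h, the 6 h minus 0 h difference ran from 1.501 to 3.07 (B230216N24Rik).

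At 1 h the members differed among themselves. The 1 h mean was below the 0 h mean in 9 of the 92. The median 1 h minus 0 h difference was 0.90, against -0.03 over all tested probe sets, and it uses the 0 h arrays by which the members were chosen. Over the 58 members above background at 0 h the median was 0.55, and the values ran from -1.04 (Lurap1) to 2.38 (Mir22hg). The share of the 6 h difference present at 1 h was under 25% in 37 probe sets, from 25% to 75% in 34 and over 75% in 21, with a median of 43.6%. In 8 of the 21 it was 100% or more. As the plot of both differences shows, each of these 3 groups held 6 h differences from near 1.5 to above 3.

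**Figure D1:**
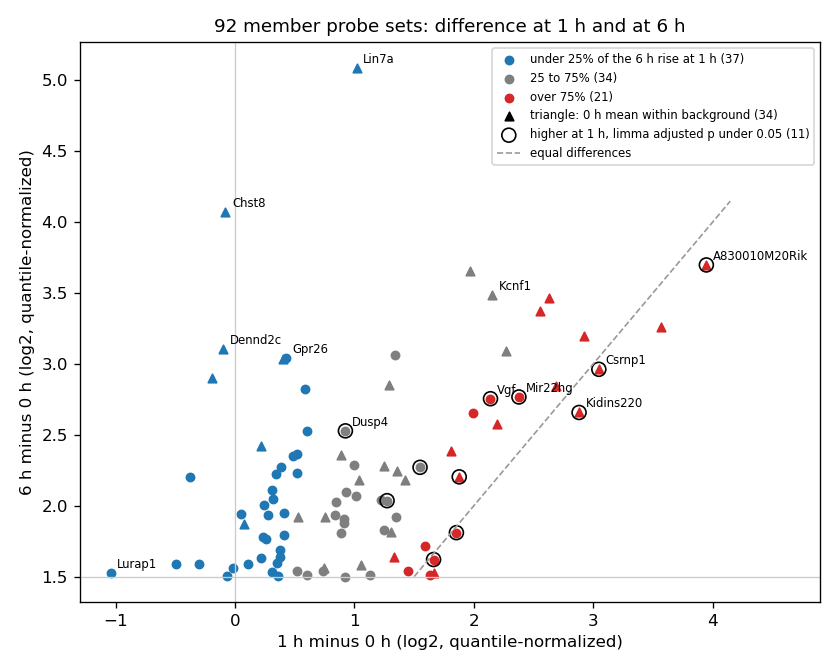
Difference at 1 h (x axis) and at 6 h (y axis), both against 0 h, on the log2 quantile-normalized scale, 1 point for each of the 92 member probe sets. Colours give the share of the 6 h difference present at 1 h (37, 34 and 21 probe sets), and rings mark the 11 probe sets higher at 1 h with a limma adjusted p under 0.05. Triangles mark the 34 probe sets whose 0 h mean lay within background, Lin7a and A830010M20Rik among them, where both differences depend on the added constant. Circles, above background at 0 h, reach at most 3.07 at 6 h and 2.38 at 1 h.

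The 1 h arrays were not used to choose the members, but the 0 h arrays were, and the 1 h comparison shares them. The rule kept members with low 0 h arrays, which favours 1 h values above them and few below. The shares given here are thus in part arranged by the rule. With limma across all tested set B probe sets and an adjusted p under 0.05, 11 of the 92 members (12%) were higher at 1 h than at 0 h, where 0.178% of all tested probe sets were. They belonged to Vgf, Mir22hg, Csrnp1, Dusp4, Snx7, Lrrc4c, Kidins220, Fam171a2, Srp72, Tmx4 and A830010M20Rik. No member was lower at 1 h by limma, also at an unadjusted p under 0.05, and 0.0415% of all tested probe sets passed the adjusted threshold in that direction. Without regard to the spread, every 1 h array lay above every 0 h array in 52 members, against 5.52% of all tested probe sets, and every 1 h array lay below every 0 h array in 0, against 6.09%. At an unadjusted p under 0.05, 55 members were higher at 1 h, against 3.26% of all tested probe sets. With the replicate number as a block, limma gave 24 members higher at 1 h, among them all 11. With a term for the arrays numbered 1 it gave 22. The 13 added by the block had adjusted p from 0.00515 to 0.0486 and were probe sets of Dcaf7, Cnksr2, Dgkd, Plppr5, Mlip, Itprip, Ppp1r12a, Spire1, Neto2, Tlk1 and Ppm1l and both of Rgmb. The count was 7 on the deposited scale and also without the arrays numbered 1, 1 (Kidins220) with arrays centred on their medians, and 0 with eBayes without an intensity trend. Without 1 h replicate 3 it was 3, without 1 h replicate 2 it was 4, without 6 h replicate 3 it was 7, and without 0 h replicate 3 it was 19.

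Between 1 h and 6 h, 40 members (43.5%) were higher at 6 h by limma with an adjusted p under 0.05, where 0.965% of all tested probe sets were. This comparison shares the 6 h arrays with the rule, which kept members with high 6 h values. The rule thus favoured members higher at 6 h than at 1 h and few lower ones, and the shares here are in part arranged by it. The median 6 h minus 1 h difference of the members was 1.16, and 0.02 over all tested probe sets. Every 6 h array lay above every 1 h array in 68 members, against 7.12% of all tested probe sets. No member was lower at 6 h than at 1 h by limma, at an adjusted or an unadjusted p under 0.05, against 1.39% and 6.70% of all tested probe sets. The 6 h mean was below the 1 h mean in 8 members, and on the normalized scale every 6 h array lay below every 1 h array in 2, A830010M20Rik and Dcaf7, against 7.98% of all tested probe sets. With the replicate block the count of members higher at 6 h than at 1 h was 50, among them all 40, and the 10 added (Trmt9b, Rspo3, Klhl4, Mbnl2, Gpr22, Crhbp, Rapgef5, Sv2c and 1 probe set each of Ppp1r12a and Zfp385b) had adjusted p from 0.00553 to 0.0390. The count was 20 on the deposited scale, 1 (Gpr26) with arrays centred on their medians and 1 (Chst8) with eBayes without an intensity trend. Without 6 h replicate 2 it was 24 and without 1 h replicate 3 it was 26.

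Secreted and adhesion proteins gave the brightest member. Vgf codes for a neuronal secreted protein that is cut into several neuropeptides, and its signal was 3154, 4859 and 4850.1 at 0 h, 16825.5, 15325 and 21134 at 1 h and 35803, 22203 and 24565 at 6 h. All 1 h arrays lay above all 0 h arrays and all 6 h arrays above all 1 h arrays. The 1 h minus 0 h difference was 2.14 ± 0.24 (SE) with a limma adjusted p of 0.00182, which was 77.7% of the 6 h difference of 2.76. Pcdh17, a protocadherin that joins cell surfaces, had 2 member probe sets. The brighter gave 1411.5, 1202 and 1709 at 0 h, 3451.5, 1471.5 and 2016 at 1 h and 13147, 9064 and 7484 at 6 h. Its 0 h and 1 h arrays overlapped, and every 6 h array was far above both, with a 6 h minus 1 h difference of 2.23 ± 0.22 (limma adjusted p = 0.000475). The dimmer gave 444, 962 and 643 at 0 h, 2043, 449.5 and 1139.6 at 1 h and 4899.6, 2720.1 and 2976 at 6 h, with the same order and a 6 h minus 0 h difference of 2.35.

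Lrrc4c codes for a postsynaptic adhesion protein that binds netrin-G1. Its brighter member probe set gave 1669, 1501 and 1399 at 0 h, 5215, 2565 and 3609.6 at 1 h and 6869.6, 5145 and 5943 at 6 h. The groups were apart at every step except that 1 h replicate 1 lay above 6 h replicate 2, and the 1 h minus 0 h difference was 1.27 ± 0.18 (limma adjusted p = 0.00992). Its dimmer probe set was close to the signal threshold, with a 6 h mean of 807 units. Fat1, an atypical cadherin, gave 6893.5, 3719.8 and 4928 at 0 h, 10856, 5329 and 5897 at 1 h and 18994, 10951 and 13431 at 6 h. In it replicate 1 was the highest array at every time, and 6 h lay above 1 h by 1.02 ± 0.20 (limma adjusted p = 0.0159). Crhbp, which binds corticotropin-releasing hormone outside the cell, differed by 1.95 between 6 h and 0 h, and Nrn1 (neuritin), a membrane-anchored protein that promotes neurite growth, by 1.60. In Nrn1 22.1% of that difference was present at 1 h. Rgmb, a coreceptor of bone morphogenetic proteins, had 2 member probe sets with most of the difference present at 1 h. One of them gave 817, 386 and 955.5 at 0 h, 2382, 2309.8 and 1884 at 1 h and 3325, 1423 and 1543 at 6 h. Its 1 h and 6 h arrays overlapped, and the 6 h minus 1 h difference was -0.12. A brighter Rgmb probe set, not a member, had means of 4356, 4857 and 4461 units at 0, 1 and 6 h.

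**Figure D2:**
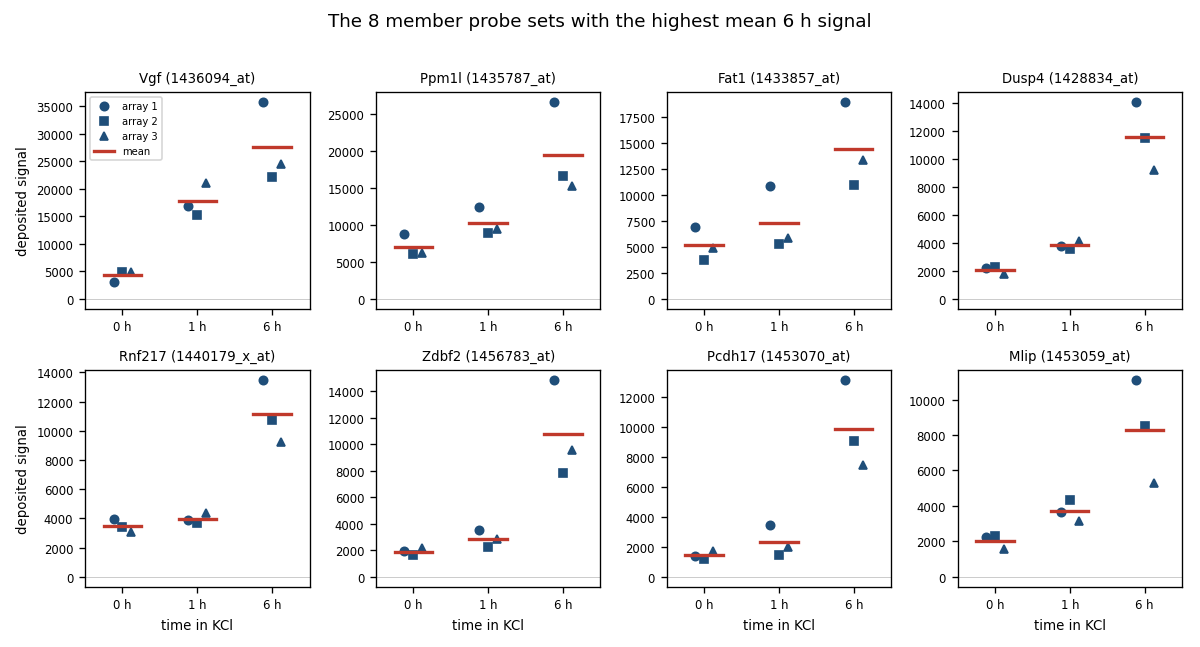
Deposited signal (y axis, linear, its own range in each panel) by time in KCl (x axis) for the 8 member probe sets with the highest mean 6 h signal, with 1 marker per array (3 per time) and a line at the mean. In all 8 panels the 6 h arrays lie above the 0 h arrays, an order that the rule required on the normalized scale. For Vgf the 1 h arrays (15325 to 21134) already lie well above the 0 h arrays (3154 to 4859), and for Pcdh17 they overlap them.

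Genes of phosphorylation signalling formed the largest family among the members by the start of the gene symbol. Of 102 set B-only genes on the kinase and phosphatase list, 6 were members (5.88%), against 1.41% of all set B-only genes. They were Dgkd, Dusp4, Ppm1l, Sik3, Ppp1r12a and Sik2, and the list does not hold the kinase Tlk1. Dusp4 codes for a nuclear phosphatase that switches off MAP kinases. Its signal was 2233, 2264 and 1783 at 0 h, 3762.5, 3569 and 4139 at 1 h and 14072, 11464 and 9226 at 6 h. The 3 groups did not overlap. The 1 h minus 0 h difference of 0.93 ± 0.16 had a limma adjusted p of 0.0385, and the 6 h minus 1 h difference of 1.60 ± 0.16 one of 0.000475. Ppm1l is a PP2C-type phosphatase that acts on stress kinase pathways, and its 3 member probe sets differed in level. The brightest gave 8714, 6068 and 6246 at 0 h, 12434, 8917 and 9405 at 1 h and 26644.5, 16574 and 15227 at 6 h. It had groups that did not overlap and a 6 h minus 1 h difference of 0.91 ± 0.13 (limma adjusted p = 0.00332). Its 1 h minus 0 h difference of 0.60 had an adjusted p of 0.122 in limma, and of 0.0231 with the replicate block. The probe set of Ppm1l with the largest 6 h difference, 2.39, gave 309.8, 113 and 441 at 0 h, 535, 1211 and 1036 at 1 h and 1825, 937 and 1415 at 6 h. Its 1 h and 6 h arrays overlapped.

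Dgkd, a kinase that turns diacylglycerol into phosphatidic acid, gave 97.8, 104 and 153 at 0 h, 307, 1273 and 1219 at 1 h and 529, 1609 and 855 at 6 h. All 1 h arrays were above all 0 h arrays, and the 1 h arrays 2 and 3 were above 2 of the 6 h arrays. The 1 h minus 0 h difference of 2.69 ± 0.59 had an adjusted p of 0.122 in limma and of 0.0297 with the replicate block. A brighter Dgkd probe set had means of 3852, 3242 and 2948 units at 0, 1 and 6 h. The salt-inducible kinases Sik2 and Sik3, which phosphorylate the CREB coactivators of the CRTC family and class IIa histone deacetylases, moved later. For Sik3 the 2 member probe sets differed by 2.23 and 2.11 at 6 h, with 23.2% and 14.8% of it at 1 h, and limma adjusted p for 6 h against 1 h of 0.000798 and 0.000543. For Sik2 the difference was 1.94, of which 14.1% was present at 1 h. Tlk1, a nuclear kinase of chromatin assembly, gave 183, 248 and 397 at 0 h, 991, 953 and 894 at 1 h and 1454, 759.9 and 654 at 6 h. Its 1 h arrays were all above its 0 h arrays, its 6 h arrays spread around them, and the 1 h minus 0 h difference of 1.67 had an adjusted p of 0.102 in limma and of 0.0486 with the block. Kidins220, a membrane scaffold and substrate of neurotrophin receptor signalling, gave 153, 98.3 and 285 at 0 h, 1175, 1330.1 and 1387 at 1 h and 1021, 1030.5 and 1235 at 6 h. On average the 1 h arrays were the highest, and the 1 h minus 0 h difference was 2.88 ± 0.42 (limma adjusted p = 0.0138), at least 3.39-fold.

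Among channels and receptors, 5 of 220 set B-only genes were members by symbol (2.27%). One of them, Itprip, codes for a protein that binds the inositol trisphosphate receptor and is no channel, and Atp10d is annotated as a transcribed pseudogene. Gpr26 codes for an orphan G-protein-coupled receptor and gave 654, 1204 and 1090.1 at 0 h, 1017, 1618 and 1319.8 at 1 h and 9025, 8140.3 and 6435 at 6 h. Its 0 h and 1 h arrays overlapped, with a difference of 0.43 ± 0.28, and all 6 h arrays were several-fold above both. The 6 h minus 1 h difference was 2.62 ± 0.28 (limma adjusted p = 0.000543). Gpr22, also an orphan receptor, gave 364, 708 and 541 at 0 h, 28.1, 861 and 1039 at 1 h and 2493, 3695 and 1700.5 at 6 h. Its 1 h arrays spread from below to above the 0 h arrays, and all 6 h arrays were above both. The 6 h minus 1 h difference of 2.58 ± 0.75 had an adjusted p of 0.122 in limma and of 0.0138 with the replicate block. Kcnf1 codes for a potassium channel subunit that modifies other Kv channels and forms none alone. It gave -491, 214 and 314 at 0 h, 219, 760.3 and 1109 at 1 h and 1607, 1748 and 1237 at 6 h. The 0 h and 1 h arrays overlapped, every 6 h array was above them, and the 6 h mean was at least 4.08-fold above the 0 h level. Neto2, an auxiliary subunit of kainate receptors, differed by 1.54 at 6 h with 93.9% of it at 1 h.

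**Figure D3:**
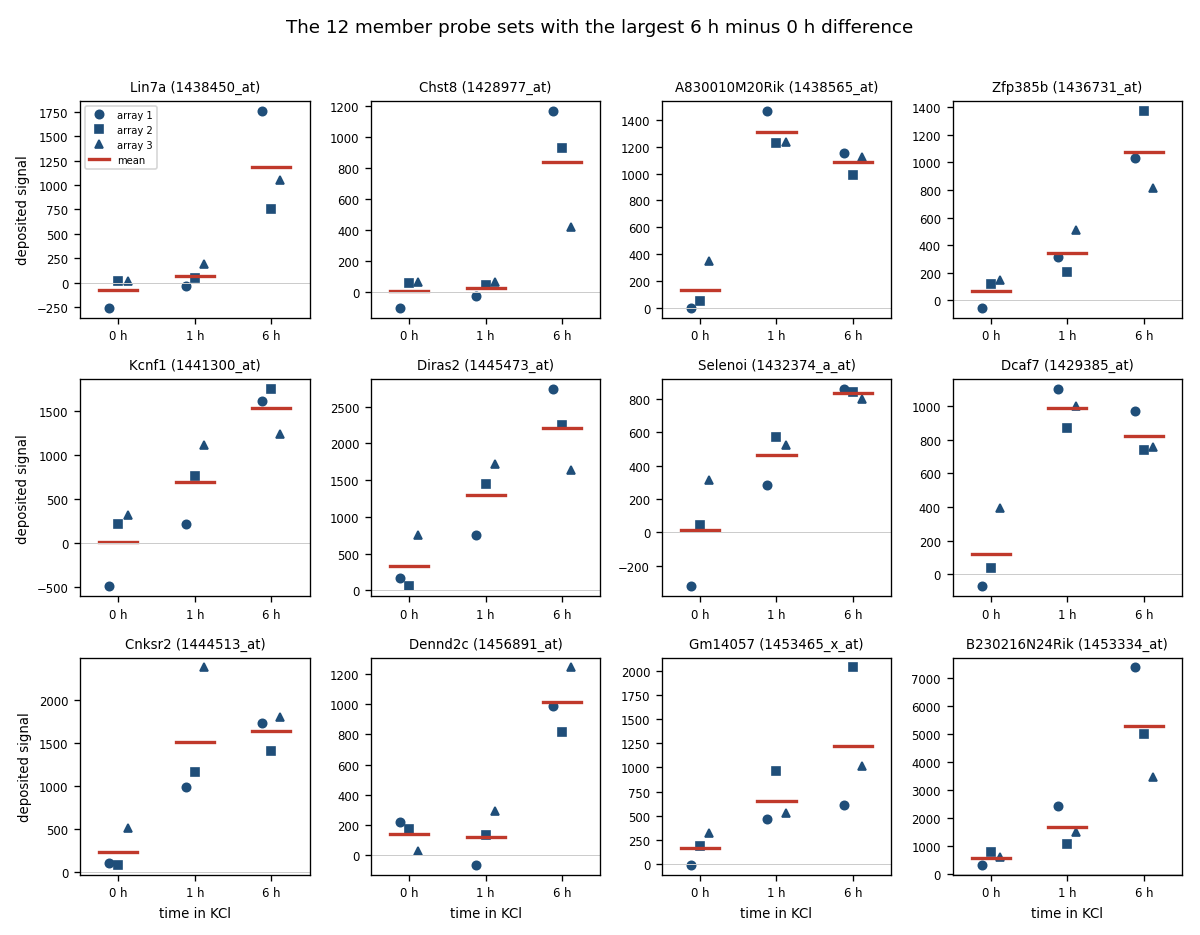
Deposited signal (y axis, linear, its own range in each panel) by time in KCl (x axis) for the 12 member probe sets with the largest 6 h minus 0 h difference, with 1 marker per array (3 per time) and a line at the mean. Lin7a, Chst8 and Dennd2c stay within the background of 369 units at 0 h and 1 h and lie above it at 6 h, while A830010M20Rik and Dcaf7 are highest at 1 h.

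Lin7a codes for a PDZ scaffold that joins CASK in complexes at the synapse. Its member probe set gave -257, 23.6 and 23.6 at 0 h, -27.5, 46.9 and 188 at 1 h and 1761, 759 and 1047 at 6 h. It lay within background on all 0 h and 1 h arrays and above it on all 6 h arrays, so that 6 h was at least 2.87-fold above 0 h. The 6 h level was also at least 2.75-fold above 1 h, with a limma adjusted p of 0.0208. Chst8 codes for an enzyme that puts sulfate on N-acetylgalactosamine of glycoprotein hormones. It gave -101, 62.2 and 62.5 at 0 h, -26.8, 44.8 and 68.2 at 1 h and 1168, 930.1 and 422 at 6 h. It too was within background until 1 h, and at 6 h at least 1.92-fold above 0 h, and at least 1.84-fold above 1 h (limma adjusted p = 0.0115). Selenoi codes for an ethanolamine phosphotransferase of phospholipid synthesis and gave -323, 47.2 and 313 at 0 h, 286, 572 and 526 at 1 h and 859, 839.7 and 799.5 at 6 h. Its 1 h arrays lay between the others except that 1 h replicate 1 was below 0 h replicate 3, and 6 h was at least 2.15-fold above 0 h.

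A further group of members act on small GTPases or in membrane traffic, some of them on no list of those families (Diras2, Cnksr2 and Dennd2c). For Diras2, Rab11fip4, Exoc6b and Rapgef5 the member probe set was dim at 0 h while another set B probe set of the gene had 0 h means of 7915, 7042, 4315 and 4157 units. The 6 h minus 0 h differences of these brighter probe sets were smaller, at 0.76, 0.35, -0.14 and 0.75. Their 1 h minus 0 h differences were 0.07, -0.10, -0.13 and -0.10. Diras2, a Ras-family GTPase, gave 168, 55.7 and 759 at 0 h, 749.8, 1443 and 1719 at 1 h and 2738.5, 2246 and 1635 at 6 h. The 0 h array 3 was just above the 1 h array 1, and 6 h was at least 4.56-fold above 0 h. Cnksr2, a postsynaptic scaffold of the Ras pathway, gave 106, 88.0 and 512 at 0 h, 983, 1167 and 2372 at 1 h and 1723, 1399.6 and 1799 at 6 h. All 1 h arrays were above all 0 h arrays, and the 1 h and 6 h arrays overlapped. The 1 h minus 0 h difference of 2.93 ± 0.60 had an adjusted p of 0.0973 in limma and of 0.00515 with the replicate block. Dennd2c, whose protein family activates Rab GTPases, gave 222, 175 and 28.2 at 0 h, -63.3, 135 and 291 at 1 h and 990.4, 813 and 1243 at 6 h. Only the 6 h arrays stood above background, at least 2.64-fold above 0 h.

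Tbc1d4 codes for a protein that inactivates Rab GTPases in glucose transporter traffic. Its signal was 41.5, 168 and 345 at 0 h, 486, 447 and 526 at 1 h and 887, 774 and 887 at 6 h, which placed every 1 h array between the 0 h and the 6 h arrays. Rab11fip4, a Rab11 effector, gave 91.7, 377 and 297 at 0 h, 358, 651 and 347 at 1 h and 826, 1155 and 1019.8 at 6 h, with overlapping 0 h and 1 h arrays. Rapgef5, an exchange factor of Rap GTPases, gave 376, 458 and 426 at 0 h, 859, 939 and 741 at 1 h and 1808.5, 1419 and 1590.2 at 6 h. Its groups did not overlap, and its 6 h minus 1 h difference of 0.96 had an adjusted p of 0.0597 in limma and of 0.0277 with the block. Snx7 codes for a sorting nexin of the endosome and gave 1179, 940.5 and 1008 at 0 h, 3180, 2848 and 3206 at 1 h and 6426, 5066 and 3605 at 6 h. The groups did not overlap, the 1 h minus 0 h difference was 1.55 ± 0.17 (limma adjusted p = 0.00179), and 6 h lay a further 0.72 higher (adjusted p = 0.0445). Snx7 and Plppr5, another member with a difference of 2.29, are next to each other in the annotation. Sv2c, a glycoprotein of synaptic vesicles, gave 183, 351 and 188 at 0 h, 399, 252 and 193 at 1 h and 1137, 909 and 844 at 6 h. Its 0 h and 1 h arrays overlapped near background. Its 6 h minus 1 h difference of 1.80 had an adjusted p of 0.0629 in limma and of 0.0244 with the block. Exoc6b, a subunit of the exocyst that tethers vesicles to the plasma membrane, gave 128, 282 and 396 at 0 h, 408, 566 and 825 at 1 h and 941, 913.5 and 769.8 at 6 h. The 1 h arrays lay between the others, with the highest above the lowest 6 h array.

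Of nuclear proteins, Csrnp1 codes for a transcription factor rich in cysteine and serine and gave 223, 124 and 103 at 0 h, 1287, 1038 and 1175 at 1 h and 1225, 964.5 and 1100.1 at 6 h. All 1 h arrays were far above the 0 h arrays and overlapped the 6 h arrays. The 1 h minus 0 h difference was 3.05 ± 0.42 (limma adjusted p = 0.00992), and the level was at least 3.04-fold above 0 h at 1 h. The 6 h level was at least 2.86-fold above 0 h. Another Csrnp1 probe set, not a member and brighter at 0 h, had means of 456, 589 and 692 units at 0, 1 and 6 h. Its differences from 0 h were 0.495 at 1 h and 0.68 at 6 h. Zfp385b, a zinc finger protein, had 2 member probe sets. One gave -55.0, 121 and 147 at 0 h, 317, 205 and 507 at 1 h and 1035, 1376 and 816 at 6 h. Its 3 groups did not overlap. The other gave 207, 342.5 and 672 at 0 h, 102, 754 and 552.5 at 1 h and 1094, 1196 and 1283 at 6 h, where 0 h and 1 h overlapped, and its 6 h minus 1 h difference of 1.58 had an adjusted p of 0.232 in limma and of 0.0370 with the block. Zfp804a gave 461, 204 and 248 at 0 h, 1029, 496 and 814 at 1 h and 1292, 801 and 1125 at 6 h, with overlapping 1 h and 6 h arrays. The list of transcription and chromatin genes, made by the start of the gene symbol, held 240 set B-only genes. Of these, 2 were members (0.833%), against 1.41% over all. The list misses members with such roles, Csrnp1 among them, so its share does not cover all transcription genes. Zdbf2, an imprinted gene of the brain, was among the brightest members. It gave 1922, 1610.4 and 2160.2 at 0 h, 3500.2, 2232 and 2819 at 1 h and 14858, 7802 and 9549 at 6 h. Its groups did not overlap, and its 6 h minus 1 h difference was 1.93 ± 0.18 (limma adjusted p = 0.000475). Mlip, which codes for a protein that interacts with lamin A, gave 2224, 2276 and 1586 at 0 h, 3636, 4326.5 and 3147 at 1 h and 11110.4, 8493.5 and 5274 at 6 h, with groups that did not overlap. Dcaf7, a WD-repeat adaptor, gave -71.3, 38.0 and 392.5 at 0 h, 1101, 868 and 1001 at 1 h and 969, 740.2 and 757 at 6 h. Its 1 h arrays were all above its 0 h arrays and overlapped its 6 h arrays in deposited signal. The 1 h minus 0 h difference of 3.57 had an adjusted p of 0.111 in limma and of 0.0256 with the block.

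Of ubiquitin ligases and their adaptors, 4 of 142 set B-only genes were members (2.82%). Klhl4, a kelch protein, gave 59.3, 284 and 256 at 0 h, 522, 406 and 633 at 1 h and 1642, 1415 and 1419.9 at 6 h. Its groups did not overlap, and its 6 h minus 1 h difference of 1.56 had an adjusted p of 0.067 in limma and of 0.0252 with the block. Rnf217, a RING-type ligase, had 2 member probe sets that moved late. The first gave 1954, 1726.5 and 2022 at 0 h, 2154, 2263 and 2194 at 1 h and 8126.5, 8059 and 5696 at 6 h, and its 1 h minus 0 h difference was 0.25. The second, which may also bind other transcripts by its design suffix, gave 3963, 3397 and 3072 at 0 h, 3879, 3657 and 4369 at 1 h and 13494, 10714 and 9264 at 6 h. Their limma adjusted p for 6 h against 1 h were 0.000543 and 0.000475. Trim9, a neuronal ligase of axon branching, and Klhdc10 stood near the threshold with 1.504 and 1.51. Brighter set B probe sets of these genes, not members, had 6 h minus 0 h differences of 0.12 and -0.19. Further Trim9 probe sets had -0.03 and -0.63.

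In the secretory pathway, Srp72 codes for a subunit of the signal recognition particle and gave 1332, 567 and 1356 at 0 h, 3678, 2754 and 3313 at 1 h and 3830.2, 2513 and 2777.5 at 6 h. Its 1 h arrays stood above all 0 h arrays and overlapped the 6 h arrays, with a 1 h minus 0 h difference of 1.66 ± 0.26 (limma adjusted p = 0.0215). Tmx4, a thioredoxin-related protein of the endoplasmic reticulum, gave 338, 243 and 445.5 at 0 h, 1089, 1331 and 1571 at 1 h and 1525, 1836 and 1395 at 6 h. It followed the same order, with a 1 h minus 0 h difference of 1.88 ± 0.31 (limma adjusted p = 0.029), at least 3.22-fold. Fam171a2, a membrane protein, gave 443, 404 and 541 at 0 h, 1499, 1723 and 2178 at 1 h and 1921, 1820.2 and 1321 at 6 h. Its 1 h arrays were all above its 0 h arrays, and the difference was 1.85 ± 0.25 (limma adjusted p = 0.00992). Each of these genes also has a brighter set B probe set. Its means at 0, 1 and 6 h were 8836, 9342 and 8505.5 units for Srp72 and 10328, 9219 and 9667 for Tmx4. For Fam171a2 they were 6207, 4836 and 3729.

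Several members are not protein-coding. Of the 81 genes, 80 matched the GRCm38.p6 annotation, with 73 protein-coding genes and 5 long noncoding RNAs (B230216N24Rik, Mir22hg, 6530402F18Rik, 1700086L19Rik and Dlx6os1). Gm14057 and Atp10d are annotated as transcribed pseudogenes, and A830010M20Rik was not matched. B230216N24Rik gave 342, 806 and 636 at 0 h, 2421, 1090.2 and 1501 at 1 h and 7372, 4997 and 3484 at 6 h. Its groups did not overlap, and its 6 h minus 1 h difference was 1.72 ± 0.30 (limma adjusted p = 0.0101). A830010M20Rik gave -0.7, 53.0 and 351 at 0 h, 1469, 1226 and 1238 at 1 h and 1154, 991 and 1119.7 at 6 h. The 1 h arrays were all above the 0 h arrays and also above the 6 h arrays in signal, and the 1 h minus 0 h difference was 3.95 ± 0.68 (limma adjusted p = 0.0385), at least 3.40-fold. Gm14057, measured by a probe set whose suffix marks possible binding of other transcripts, gave -7.90, 191 and 319 at 0 h, 471, 963 and 524 at 1 h and 616, 2034.5 and 1012.5 at 6 h, with 1 h arrays above 0 h arrays and overlapping 6 h arrays.

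Mir22hg is the host transcript of the microRNA miR-22, and the array measures the host and not the microRNA. Its signal was 511, 321 and 332 at 0 h, 2916, 1645 and 1965.5 at 1 h and 2876, 2909 and 2095 at 6 h. Every 1 h array lay far above every 0 h array, with a difference of 2.38 ± 0.25 (limma adjusted p = 0.00119), and the 1 h and 6 h arrays overlapped. The mature sequences of both arms, from RefSeq on GRCm38.p6, are shown because the hairpin lies inside this member, with the 5p arm at chr11:75463734-75463755 and the 3p arm at chr11:75463772-75463793 on the plus strand, and with the seed (bases 2 to 8) in capitals.
mmu-miR-22-5p: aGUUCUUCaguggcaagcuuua
mmu-miR-22-3p: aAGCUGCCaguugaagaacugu

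Many of these genes are measured by further set B probe sets, and these often gave other values. Another set B probe set existed for 57 of the 81 genes, 103 in all, and 71 of them were above background at 0 h or 6 h. Of the 71, 59 had a 6 h minus 0 h difference of 0 or above, 12 were below 0 and 9 reached 1.5, with a median of 0.83. In 36 genes another probe set was brighter at 0 h than the member with the largest difference. The members of these genes had a median difference of 2.22 and the brighter probe sets one of 0.59. Part of this gap is built in. The member with the largest difference was taken for each gene, and the other probe sets are those that did not meet the rule. The brighter probe set differed by at least 0.5 in 20 genes, by less than 0.5 either way in 14 and by -0.5 or lower in 2, Fam171a2 and Neto2.

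For Kidins220 the member had mean signals of 179, 1297 and 1095 units at 0, 1 and 6 h, while the brighter probe set had 25686, 24872 and 19299. For Dcaf7 the means were 120, 990 and 822 in the member and 17011, 17332 and 13038 in the brighter probe set. In both genes the brighter probe set was lower at 6 h than at 0 h, by differences of -0.43 and -0.39. Sik2, Sik3, Heca and Lin7a were closer: their brighter probe sets differed by 1.31, 1.37, 1.42 and 1.34 at 6 h. The median 6 h minus 0 h difference of the brighter probe sets differed with the time course of the member, while the ranges overlapped. Where over 75% of the member's difference was present at 1 h (15 genes), the median was 0.08 (range -0.63 to 0.84). Where it was 25% to 75% (12 genes), the median was 0.68 (-0.19 to 1.26). Where it was under 25% (9 genes), the median was 1.31 (0.12 to 1.49). The part of a dim 0 h signal of the member in this split was not tested. Which transcripts each probe set binds was not tested.

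**Figure D4:**
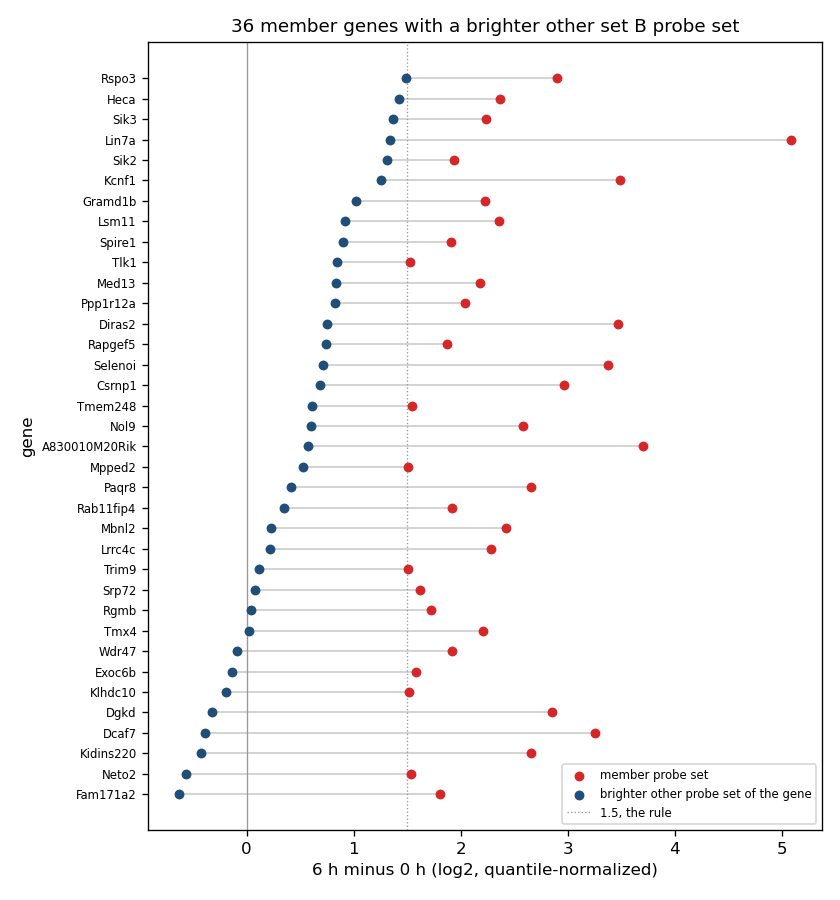
6 h minus 0 h difference (x axis, log2, quantile-normalized) of the member probe set with the largest difference and of the brightest other set B probe set, for the 36 member genes (y axis) where the other is brighter at 0 h. The others range from -0.63 (Fam171a2) to 1.49 (Rspo3), all below the 1.5 marked by the dotted line, past which most would themselves have been members.

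A list of genes known to be induced by neuronal activity, written with results of these data known, held 26 set B-only genes, and 11 of them were members (42.3%): Chst8, Kcnf1, Csrnp1, Vgf, Dusp4, Zdbf2, Mbnl2, Sik3, Gpr22, Sik2 and Nrn1. Its 47 tested probe sets had a median 6 h minus 0 h difference of 0.74, against -0.01 over the tested set B-only probe sets. Of the 47, 12 were member probe sets, chosen by this same difference. As the list was also not made blind to these data, nothing is read from its shares. At 1 h, 4 of the 47 were higher by limma, where 0.178% of all tested probe sets were, and 0 were lower, against 0.0415%. The higher ones were Csrnp1, Vgf, Dusp4 and Coq10b, a mitochondrial protein of coenzyme Q function that is no member (1 h minus 0 h 1.61, limma adjusted p = 0.0148). The other family lists held 108 genes of small GTPase regulation (3 members), 123 of secreted and adhesion proteins (4), 33 of glycan and sulfate transfer (1, Chst8) and 119 of cytoskeleton and traffic (3), and their medians ran from -0.01 to 0.11.

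Promoter windows of 300 bases (from 250 before to 50 after the annotated start, RefSeq on GRCm38.p6) were on hand for 61 member genes, 89 windows in all. They were searched on both strands for the CRE, TGACGTCA, bound by CREB, for its core TGACG, for the AP-1 site TGANTCA bound by Fos and Jun, for the EGR site GCGNGGGCG, and for the SRE core and the MEF2 site. Every CRE also holds this core. The EGR site was found in 13 of the 61 genes (21.3%), against 8.74% of 4441 set B-only genes and 6.27% of all 27025 genes with a window. The CRE core was found in 28 (45.9%), against 26.9% and 23.0%. The CRE was found in 3.28% (Heca and Zdbf2), against 2.84% and 2.03%, and AP-1 in 9.84%, against 7.07% and 8.97%. The MEF2 site was found in 1 gene, Dennd2c (1.64% against 0.495% and 0.636%), and the SRE core in 0, against 1.26% and 1.81%. A gene can have several windows, and counted per window the EGR site was in 14.6% of 89, against 7.58% of 5396 and 5.55% of 32851, and the CRE core in 37.1%, against 24.6% and 20.8%. The windows also differed in base composition, with a median GC content of 60% in the members, 56.3% in set B-only genes and 52.7% in all, and its part in these shares was not tested. A match is a description and no proof of binding.

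**Figure D5:**
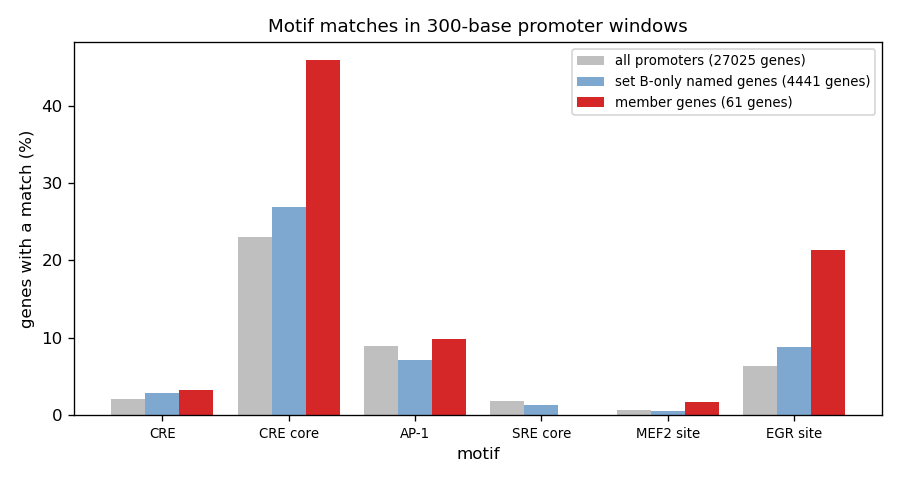
Share of genes (y axis, %) with at least 1 match of each motif (x axis) in a 300-base promoter window, for all genes with a window (27025), set B-only named genes (4441) and member genes (61). The members' bars are highest for the CRE core (45.9%) and the EGR site (21.3%).

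The windows below are shown because they hold the CREs of the members (Zdbf2 and Heca), a pair of AP-1 sites in a gene higher at 1 h (Csrnp1), the single MEF2 site (Dennd2c) and EGR sites in a late kinase (Sik2, on the opposite strand) and in a late enzyme (Chst8). Each is written 5′ to 3′ on the strand of its gene, with the motifs in capitals: the CRE in Zdbf2, both CREs and an EGR site in Heca, the AP-1 sites in Csrnp1, the MEF2 site in Dennd2c and the EGR sites in Sik2 and Chst8.
Zdbf2 (GRCm38.p6, chr1:63273019-63273318, plus strand): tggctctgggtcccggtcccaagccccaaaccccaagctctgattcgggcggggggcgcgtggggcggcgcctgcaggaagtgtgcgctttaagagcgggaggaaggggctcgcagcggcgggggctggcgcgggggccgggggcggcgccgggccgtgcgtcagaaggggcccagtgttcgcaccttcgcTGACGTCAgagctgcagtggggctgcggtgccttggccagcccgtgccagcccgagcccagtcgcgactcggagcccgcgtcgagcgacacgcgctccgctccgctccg
Heca (GRCm38.p6, chr10:17948018-17948317, minus strand): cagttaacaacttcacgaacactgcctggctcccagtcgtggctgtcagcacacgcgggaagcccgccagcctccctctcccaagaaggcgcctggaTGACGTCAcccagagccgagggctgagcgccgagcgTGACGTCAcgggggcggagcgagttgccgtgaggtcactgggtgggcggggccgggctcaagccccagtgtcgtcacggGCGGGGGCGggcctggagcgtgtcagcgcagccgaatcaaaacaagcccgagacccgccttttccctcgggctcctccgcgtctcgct
Csrnp1 (GRCm38.p6, chr9:119982974-119983273, minus strand): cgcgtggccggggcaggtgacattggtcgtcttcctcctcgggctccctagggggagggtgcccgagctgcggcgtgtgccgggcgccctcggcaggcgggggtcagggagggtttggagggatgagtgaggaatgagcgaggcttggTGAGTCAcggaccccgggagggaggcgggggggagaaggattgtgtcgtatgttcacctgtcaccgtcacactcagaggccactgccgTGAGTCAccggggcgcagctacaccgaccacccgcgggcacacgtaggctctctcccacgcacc
Dennd2c (GRCm38.p6, chr3:103140076-103140375, plus strand): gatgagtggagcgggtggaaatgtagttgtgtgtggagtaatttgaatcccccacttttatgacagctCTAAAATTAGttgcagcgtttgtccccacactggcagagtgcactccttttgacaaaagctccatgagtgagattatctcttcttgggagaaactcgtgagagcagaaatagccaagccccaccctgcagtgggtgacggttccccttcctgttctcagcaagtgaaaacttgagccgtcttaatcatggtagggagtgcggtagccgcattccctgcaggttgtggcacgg
Sik2 (GRCm38.p6, chr9:51009024-51009323, minus strand): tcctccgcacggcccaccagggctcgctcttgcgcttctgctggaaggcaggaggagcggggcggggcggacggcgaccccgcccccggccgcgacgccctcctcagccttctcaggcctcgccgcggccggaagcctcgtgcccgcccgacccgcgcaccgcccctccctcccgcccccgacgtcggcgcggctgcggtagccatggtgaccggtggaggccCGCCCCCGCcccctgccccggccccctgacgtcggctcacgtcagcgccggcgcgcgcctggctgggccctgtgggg
Chst8 (GRCm38.p6, chr7:34812662-34812961, minus strand): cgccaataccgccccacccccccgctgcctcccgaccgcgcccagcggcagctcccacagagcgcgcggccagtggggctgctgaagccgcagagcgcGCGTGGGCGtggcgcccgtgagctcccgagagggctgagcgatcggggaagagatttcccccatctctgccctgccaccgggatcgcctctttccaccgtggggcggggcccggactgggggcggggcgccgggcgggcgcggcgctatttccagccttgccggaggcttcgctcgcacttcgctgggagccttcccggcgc

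The thresholds cut through a continuous range. Just inside the difference of 1.5 were Spata2l, Trim9 and Mpped2 (1.501, 1.504 and 1.51), and just outside were Gm33409, a second probe set of Rspo3 and Csnk1g3 (1.49, 1.49 and 1.48). Just inside the signal of 800 units were Lrrc4c, Dcaf7 and Selenoi (807, 822 and 833), and just outside were Cds1, Fstl5 and Fam241a (798, 746 and 715). A further 116 set B-only probe sets met the difference and the order of the arrays with a 6 h signal under 800 units, and 8 met the difference and the signal while their arrays overlapped.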

How the data were processed

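Total RNA of the cultures (200 ng per sample) was made into biotin-labelled cRNA and hybridised to the arrays, per the labels' protocols. The deposited values are linear intensities, 1 per probe set and array. How background was corrected and probes were summarised is not stated in the sources. Negative values occur on set B in replicate 1 of each time and on no other array, so the authors' deposited intensities were not all made in 1 way. Precision is limited by the number of arrays.

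Gene symbols came from the platform annotation supplied with the data. Negative values were raised to 0, a constant of 16 was added before log2, and quantile normalization was applied over the 9 set B arrays, whose medians otherwise spread over 0.56 log2. Of 22511 probe sets other than 64 controls, the lowest 25% by mean were left out, and 16883 were fitted with limma 3.58.1 in R 4.3.3 (means model of 3 times, eBayes with an intensity trend). Tests were two-sided, with Benjamini-Hochberg adjustment over all 16883. All 92 members passed this filter. Standard errors are those of the fit, on the log2 scale. The fitting code was tested on simulated data. Tables were read with pandas 2.3.3 and with the R package data.table, version 1.17.8, and plots were made in matplotlib 3.10.9 under Python 3.11.15.

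Replicate numbers were checked for pairing by correlating, between arrays of different times, each array's departure from its time's mean. All 9 correlations of same-numbered arrays were above 0.1, the level set for treating numbers as pairs. They were 0.446 to 0.476 among the arrays numbered 1 and 0.150 to 0.207 among those numbered 2 or 3. All 12 pairs of a number 1 array with another number were below 0 (-0.308 to -0.232). The 6 pairs of number 2 with number 3 gave 0.132 to 0.197, much as same-numbered pairs did, so the check sets apart the arrays numbered 1 and does not tell numbers 2 and 3 apart. The fit without the replicate block is the one reported. Each call that the block added is named with the 1 h or the 6 h comparison, and for some genes the blocked value stands beside the result.

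The members and the gene lists were chosen with earlier results of these data known. Values in every array are given for the 12 members with the largest 6 h minus 0 h difference, the 8 with the highest 6 h signal, each member higher at 1 h by limma, each with a 6 h mean below its 1 h mean, and up to 3 of each of 9 gene lists. Other members are named as examples after their values were seen. Alternatives were other added constants, other scalings, no filter, no trend, a replicate block and a term for the arrays numbered 1. Single arrays, or the 3 arrays numbered 1, were also left out.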

Additional observations from a re-analysis of the deposited data

How the results depend on the processing

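The number of probe sets that met the rule was 95 and 78 with an added constant of 1 and 64, 90 on the deposited scale, 74 with arrays centred on their medians, 84 without the 3 arrays numbered 1, and 82 to 112 with single arrays left out. The count of members higher at 1 h than at 0 h, 11 as reported, was 7 on the deposited scale and 1 with median centring. It was 7 without the arrays numbered 1 and 0 with eBayes without a trend. The replicate block gave 24, a term for the arrays numbered 1 gave 22, and leaving out single arrays gave 3 to 19. The count higher at 6 h than at 1 h, 40 as reported, was 20 on the deposited scale, 1 with median centring, 1 with eBayes without a trend, 50 with the replicate block, and 24 to 39 with single arrays left out. No member was lower at 6 h than at 1 h by limma in any of the 18 alternatives. The rule, which kept members high at 6 h, favoured this, and nothing is read from it. The cause of the shifts in the counts was not tested. Of the 11 called at 1 h, Mir22hg, Snx7 and Vgf stayed past the threshold in 16 of the 18 alternatives, Dusp4 in 5 and A830010M20Rik in 4.

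For the 44 members given array by array, no 6 h minus 0 h difference changed sign in the 792 recomputed values. The rule, which required every 6 h array above every 0 h array, had arranged this, and nothing is read from it. Of 792 recomputed values each, 15 of the 1 h minus 0 h and 12 of the 6 h minus 1 h differences changed sign, all of them in members whose difference was not past the threshold. Without the 3 arrays numbered 1 the 1 h minus 0 h difference was 1.17 for Dennd2c, 0.34 for the second Zfp385b probe set, 0.53 for Gpr22, -0.178 for the dimmer Pcdh17 probe set and -0.26 for Sv2c, and the 6 h minus 1 h difference of Dgkd was -0.055. With an added constant of 64 the 1 h minus 0 h difference of the second Zfp385b probe set was 0.012. With single arrays left out, the 1 h minus 0 h difference ranged from -0.23 to 0.0033 for Chst8, from -1.06 to 0.67 for Dennd2c, from -0.49 to 0.68 for the second Zfp385b probe set, from -1.06 to 0.79 for Gpr22 and from -0.25 to 0.36 for Sv2c. The 6 h minus 1 h difference then ranged from -0.046 to 0.67 for Cnksr2, from -0.479 to 0.58 for Dgkd, from -0.26 to 0.13 for Fam171a2, from -0.36 to 0.036 for Rgmb, from -0.082 to 0.017 for Srp72 and from -0.42 to 0.070 for Tlk1. The 0 h signals of 34 members lie within background, which limits how well their differences are known.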

Other observations

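Outside the members, Dusp5, a phosphatase of MAP kinases on the list of activity-induced genes, had a set B probe set within background at 0 h and at 6 h (mean 216 units), with a mean of 1000.3 units at 1 h. The 1 h level was at least 2.62-fold above 0 h, and the limma adjusted p for 1 h against 0 h was 0.0886. Cds1, which makes CDP-diacylglycerol in phospholipid synthesis, was within background at 0 h, at least 1.97-fold above it at 6 h, and missed the signal threshold by the narrowest margin, at 798 units.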
